A study of Mus musculus with 16 samples.

Results

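The regions described here are the 1 kb stretches of the mouse autosomes in which naive T cells read as more methylated after bisulphite (BS) treatment than after oxidative bisulphite (oxBS) treatment. Chromosomes 1 to 19 of mm10 were cut into non-overlapping regions of 1000 bases from position 1, and a region was eligible with at least 5 covered CpGs and at least 100 methylation calls in the pool of the 4 T cell BS libraries and in the pool of the 4 T cell oxBS libraries. Of 1548252 eligible regions, 5659 (0.366%) had a pooled BS level at least 20 percentage points above the pooled oxBS level, and these are called members below. The same limit in the opposite direction was reached by 12 regions (0.000775%). Members were thus selected on the T cell difference itself, which is given below as a description with no test.

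BS sequencing reads both 5-methylcytosine (5mC) and 5-hydroxymethylcytosine (5hmC) as methylated, whereas the oxidation step of oxBS sequencing turns 5hmC into a base that is read as unmethylated. BS minus oxBS is therefore used in the field as a measure of 5hmC. 5hmC is made from 5mC by the TET dioxygenases and is known as both an intermediate of active demethylation and a lasting mark in the bodies and enhancers of active genes. In lymphocytes, TET enzymes are known for their role at lineage genes and enhancers.

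The data were 16 whole-genome libraries of C57BL/6J mice aged 6 to 8 weeks, made from spleen cells separated with magnetic beads into naive CD4+ T cells selected with CD62L and resting CD43- B cells. Each combination of cell type and sex had 2 BS and 2 oxBS libraries, and the oxBS ones come from material treated with the oxidant KRuO4. The design text speaks of pooled mice and no label names a mouse, so p-values measure the spread between libraries, and whether a BS and an oxBS library hold the same DNA is not given. Both cell types were untreated and of 1 strain. Within 500 bases of their gene starts, the T cell genes *Cd3e*, *Cd3g*, *Cd3d*, *Lck*, *Bcl11b* and *Cd5* had lower levels in every T cell library than in every B cell library, and the B cell genes *Cd79a*, *Cd79b* and *Cd22* had higher levels. For *Cd3e*, T cell libraries ranged from 0.541% to 2.47% and B cell libraries from 85.2% to 92.6%. The myeloid genes *Lyz2* and *Csf1r* had levels that overlapped between the cell types, at 12.2% to 40.3% and 85.3% to 99.1% over the 16 libraries.

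The bases of 4 members are shown because they hold some of the largest differences or lie in the longest runs, in introns, the most frequent setting of members (*Lef1*, *Bcl11b*, *Cdk17*), and near a gene start, the rarest (*Ywhaz*). Each is the stretch of 120 bases with the most CpGs in its region that touches no exon and no masked repeat, on the plus strand of mm10 (RefSeq GRCm38.p6), and capitals mark the CpGs that were measured.
*Lef1* intron window, chr3:131173681-131173800: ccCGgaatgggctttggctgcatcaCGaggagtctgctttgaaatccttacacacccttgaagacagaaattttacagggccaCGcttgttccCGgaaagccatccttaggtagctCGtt
*Ywhaz* promoter window, chr15:36795881-36796000: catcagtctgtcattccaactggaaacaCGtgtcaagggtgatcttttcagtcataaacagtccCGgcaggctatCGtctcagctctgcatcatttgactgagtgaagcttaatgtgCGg
*Bcl11b* intron window, chr12:107944521-107944640: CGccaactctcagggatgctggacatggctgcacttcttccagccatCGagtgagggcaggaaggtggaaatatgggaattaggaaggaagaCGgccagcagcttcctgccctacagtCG
*Cdk17* intron window, chr10:93174639-93174758: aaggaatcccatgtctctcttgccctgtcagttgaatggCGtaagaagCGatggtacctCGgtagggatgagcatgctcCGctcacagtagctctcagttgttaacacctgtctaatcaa

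*Lef1* encodes a transcription factor of the TCF and LEF family that is active in naive T cells. In its window of 5 CpGs, the pooled T cell level was 49.3% by BS and 12.5% by oxBS, while the pooled B cell level was 98.5% by BS and 98.3% by oxBS. Every one of the 5 CpGs was higher by BS than by oxBS in T cells, and the fourth, at position 94 of the window, read 76.7% by BS on 30 calls and 25% by oxBS on 20 calls. *Cdk17*, a cyclin-dependent kinase gene, had 4 CpGs in its window with a pooled T cell level of 75.5% by BS and 36.6% by oxBS, against 93.6% and 93.3% in B cells. *Bcl11b* encodes a zinc finger transcription factor needed for T cell commitment. Its window of 4 CpGs read 86.1% by BS and 64.6% by oxBS in T cells, and 67.7% and 63.8% in B cells. *Ywhaz* encodes a 14-3-3 adaptor protein. Its region overlapped the gene, and the centre of the region lay 1428 bases from the gene start. The window is labelled promoter only because the region reached within 1000 bases of that start. The *Ywhaz* window of 4 CpGs read 95.1% by BS and 71.4% by oxBS in T cells, against 92.3% and 94.3% in B cells.

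T cell levels of the members were intermediate by both treatments. The median pooled level was 72.3% by BS and 47.5% by oxBS, and the median difference was 22.9 points, with a highest value of 47.1 points. Over the 5575 members that also had 5 CpGs and 100 calls in both B cell pools, the library means of the 4 T cell BS libraries were 70.2%, 70.4%, 70.5% and 70.6%, or 70.4% ± 0.204 (SD, n = 4). The 4 T cell oxBS libraries had means of 46.1%, 46.5%, 46.5% and 46.8%, or 46.5% ± 0.269 (SD, n = 4). The groups did not overlap, and male and female libraries lay within the same narrow range. Over all 1522052 regions eligible in both cell types, the T cell means were 85.8% ± 0.0784 by BS and 84.5% ± 0.101 by oxBS (SD, n = 4 each). At single members, all 4 BS libraries lay above all 4 oxBS libraries in 5209 of 5659 regions (92.0%), against 6.35% of all eligible regions, a contrast on which the rule itself acts.

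**Figure D1:**
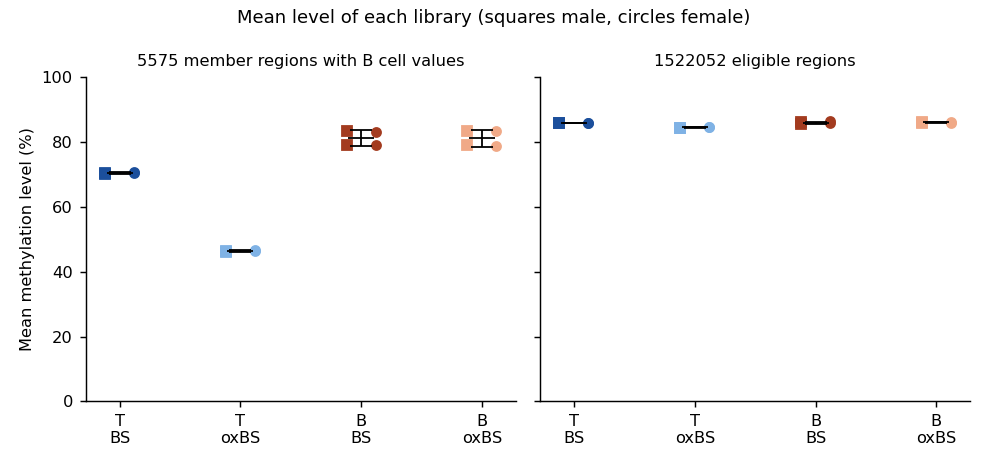
Mean methylation level (%) of each of the 16 libraries over the 5575 members with B cell values (left) and over all 1522052 eligible regions (right), with 4 libraries per group as squares (male) and circles (female) and a black line and bars for the mean ± SD. Among members the T cell BS libraries sit between 70.2% and 70.6% and the T cell oxBS libraries between 46.1% and 46.8%, while B cell BS and oxBS libraries cover the same range.

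Most CpGs of the members had the same direction in T cells. Among 48409 CpGs of members with at least 15 calls in each T cell pool, 91.0% were higher by BS than by oxBS, 51.6% by at least 20 points, and 0.0165% were lower by at least 20 points. Over the CpGs of all eligible regions with that minimum, the T cell shares were 49.8%, 2.11% and 0.581%. The rule chose the members on the same T cell calls, so the direction of their CpGs is a description. The median over the CpGs of members was 20.7 points in T cells and 0 points in B cells. In B cells 45.8% of 51075 CpGs of members were higher by BS, against 42.6% over all eligible regions. In these shares, for T and B cells alike, a CpG equal by both treatments was not counted as higher. The remaining CpGs were therefore not all lower by BS. When the 1 CpG was dropped that left the smallest pooled T cell difference, the median over members was 20.1 points and the lowest value 5.53 points. By that measure 5648 of the 5659 members (99.8%) kept at least 10 points, a limit below that of the rule and read on the same calls. The members had a median of 9 CpGs and 491 calls in the 8 T cell libraries, against 9 CpGs and 560 calls over all eligible regions. The regions just inside the limit were intronic regions of *Gm12216*, *Foxo1* and *Fam69a*, at 20, 20.0011 and 20.0012 points, and those just outside were in *Cdk17*, near *Zfp217* and at *Tmem129*, at 19.9991, 19.9982 and 19.9963 points.

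Counts fell with the limit in both directions but at different rates. At 15 points, 16479 regions were higher by BS and 221 lower, at 25 points 1710 and 2, at 30 points 410 and 1, and at 40 points 12 and 0.

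**Figure D2:**
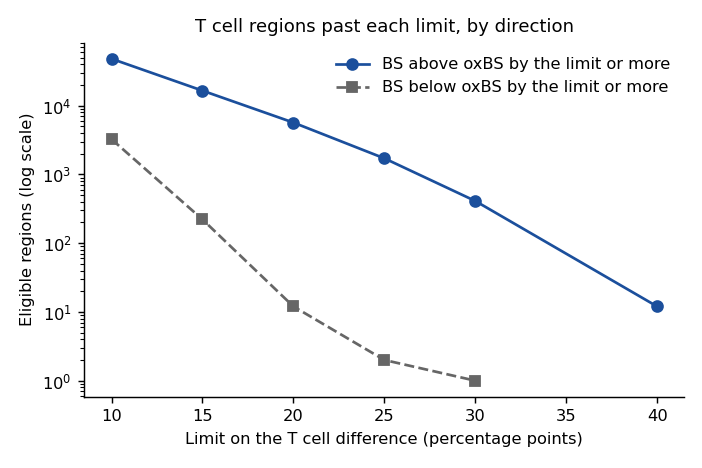
Number of eligible regions (log scale) whose T cell BS level lay above (circles) or below (squares) the oxBS level by at least the limit on the x axis, in percentage points. At 20 points the counts are 5659 and 12, and the square at 40 points is missing because no region was that far below.

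The 2 sexes were then used as a check that does not rest on the libraries that chose the regions. Of 8574 regions chosen at 20 points or more in the male T cell libraries alone, with at least 50 calls per pool, 8244 could be read in the female T cell libraries. There the median difference was 15.8 points, 93.9% were above 0, 32.3% were at 20 points or more and 0.0849% at -20 points or less. In the other direction, 8333 of 8591 regions chosen in female libraries were read in male libraries, with a median of 15.8 points, 93.9% above 0 and 32.0% at 20 points or more. Regions read without that choice had medians of 0.898 and 0.959 points, with 0.556% and 0.550% at 20 points or more. The regions chosen at -20 points or less in male libraries had a median of 0.748 points in female libraries over 283 regions, and those chosen in female libraries had a median of 1.68 points in male libraries over 334 regions. In the same held-out sex, B cells had medians of 0.107 points (female) and -0.307 points (male) at the regions chosen at 20 points or more.

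Whether the BS minus oxBS difference was larger in T than in B cells was tested within the held-out sex by the interaction of cell type and assay in limma, a test added after the data had been seen. No region reached an adjusted p under 0.05 in either sex, among 1522052 tested, but in simulated data for the female libraries the adjusted test recovered no changed region, so this count carries no information. At an unadjusted p under 0.05 with T above B, 1988 of 8354 regions chosen in males (23.8%) passed in female libraries, against 5.08% of all regions. Of 8395 regions chosen in females, 1987 (23.7%) passed in male libraries, against 4.69% of all regions. With 2 libraries per group in each sex, an exact permutation test of a single region could not go below p = 0.333.

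In B cells the BS and oxBS levels of the members lay together. The B cell BS libraries had member means of 83.3%, 78.9%, 83.2% and 79.2% (libraries 1, 4, 10 and 12), or 81.2% ± 2.41 (SD, n = 4), and the oxBS libraries 83.4%, 79.1%, 83.3% and 78.8% (libraries 2, 3, 9 and 11), or 81.2% ± 2.56 (SD, n = 4). The B cell libraries therefore stood at 2 levels, 4 of them between 83.2% and 83.4% and 4 between 78.8% and 79.2%, and each level held 1 male and 1 female library of each treatment. BS and oxBS libraries with neighbouring numbers differed by -0.092, -0.163, -0.150 and 0.43 points in B cells and by 23.9 to 24.0 points in T cells, although no label says that neighbouring numbers share cells. The median pooled B cell difference over the 5575 members was -0.0161 points, and the values from the 5th to the 95th percentile ran from -6.17 to 5.96 points. Male libraries alone gave -0.198 points and female libraries alone 0.199 points. Without libraries 3, 4, 11 and 12 the median was -0.132 points, and without libraries 1, 2, 9 and 10 it was 0.202 points. A B cell difference above 0 was found in 49.7% of members and in 49.1% of all regions.

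No member reached 20 points in B cells in either direction, against 0.0021% of all regions at 20 points or more and 0.00309% at -20 points or less. At these shares a set of 5575 regions would mostly hold none. At 10 points or more there were 68 members (1.22%), against 0.326% of all regions, and at -10 points or less 63 (1.13%), against 0.384%, so that members passed this limit more often than all regions in both directions. By the quasi-binomial test with sex as a covariate, 0 members and 0% of all regions differed between BS and oxBS at an adjusted p under 0.05, and limma also called 0. An unadjusted p under 0.05 was found in 68 members (1.22%), against 1.11% of all regions, and limma gave 190 members (3.41%) at that threshold, against 4.66% of all regions. All 4 B cell BS libraries lay above all 4 oxBS libraries in 45 members (0.807%), against 1.28% of all regions, and below them in 64 (1.15%), against 1.39%. In simulated data of 50000 regions, 200 of them changed by 20 points, the adjusted test recovered no changed region, and the same held at 40 points. A lack of adjusted calls therefore does not bound the difference. At an unadjusted p under 0.05, the quasi-binomial test recovered 189 of the 200 regions changed by 20 points (94.5%). The simulated data did not hold the 2 levels of B cell libraries. The test with sex alone also did not model the level of the B cell library.

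The 3 members with the largest pooled B cell difference were in an intron of the clathrin heavy chain gene *Cltc* (17.6 points), near *Btg2* (17.2 points) and across an exon of *Ptprc*, which encodes CD45 (16.8 points). At the *Cltc* region, chr11:86739001-86740000, the B cell BS libraries read 81.0%, 66.7%, 78.6% and 73.3% and the oxBS libraries 56.4%, 41.9%, 78.4% and 58.6%. The BS and oxBS libraries overlapped, and the exact permutation test gave p = 0.0857 (two-sided, n = 4 against 4, smallest possible 0.0286). Within libraries 1, 2, 9 and 10 the *Cltc* values were 81.0% and 78.6% by BS against 56.4% and 78.4% by oxBS. Within libraries 3, 4, 11 and 12 they were 66.7% and 73.3% against 41.9% and 58.6%. Neither level overlapped, but the region was picked for its size. The levels are known from the data alone, and this split was not tested. Near *Btg2*, libraries 1, 2, 9 and 10 overlapped, with 81.6% and 75% by BS against 58.5% and 77.1% by oxBS. Among the 10 largest B cell differences, 13.7 to 17.6 points, all BS libraries lay above all oxBS libraries at *Gm43302* (15.6 points), *Kif21b* (14.9 points) and a region 26666 bases from the start of *4930512M02Rik* (14.1 points). The exact permutation test gave p = 0.0286 for each (two-sided, n = 4 against 4), in regions picked for their size, and the quasi-binomial adjusted p was 1. The other 4 of the 10 were at *Srrm2* (16.3 points), 376934 bases from the start of *Hsfy2* (14.4 points), 14043 bases from that of *Gm9887* (13.98 points) and in *Parg* (13.7 points), with exact permutation p between 0.0857 and 0.2 (two-sided, n = 4 against 4).

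The longest unbroken run of members lay in an intron of *Bcl11b*, chr12:107940001-107953000, with 13 consecutive regions and 235 CpGs. The T cell BS libraries read 70.1%, 69.9%, 71.2% and 68.3% over the run and the oxBS libraries 41.2%, 40.2%, 46.9% and 42.6%. The B cell BS libraries read 89.5%, 88.4%, 88.4% and 89.8% and the oxBS libraries 90.2%, 89.9%, 89.6% and 87.7%. T cell BS and oxBS libraries were apart by over 20 points, and B cell BS and oxBS libraries overlapped.

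A second run of 11 regions, chr11:52251001-52262000, reached from *Tcf7* into intergenic sequence. *Tcf7* encodes TCF1, a transcription factor of T cell development. There the T cell BS libraries read 73.1%, 74.5%, 73.5% and 74.5% and the oxBS libraries 49.8%, 48.0%, 48.0% and 47.0%, while the B cell pools read 86.4% and 86.0%. The third run, of 10 regions, was in an intron of *Lef1*, chr3:131173001-131183000. T cell BS libraries read 70.2%, 69.0%, 71.8% and 69.6% and oxBS libraries 44.5%, 41.1%, 40.3% and 41.6%, while all 8 B cell libraries read between 93.7% and 95.4%. In these 3 runs, no T cell library of either treatment reached the lowest B cell library. Runs of 9 and 8 regions followed within *Cdk17*, where the last region touches an exon and the others are intronic, and in an intron of the E3 ubiquitin ligase gene *Znrf1*, with pooled T cell differences of 25.4 and 25.7 points and B cell differences of -0.409 and 0.283 points.

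**Figure D3:**
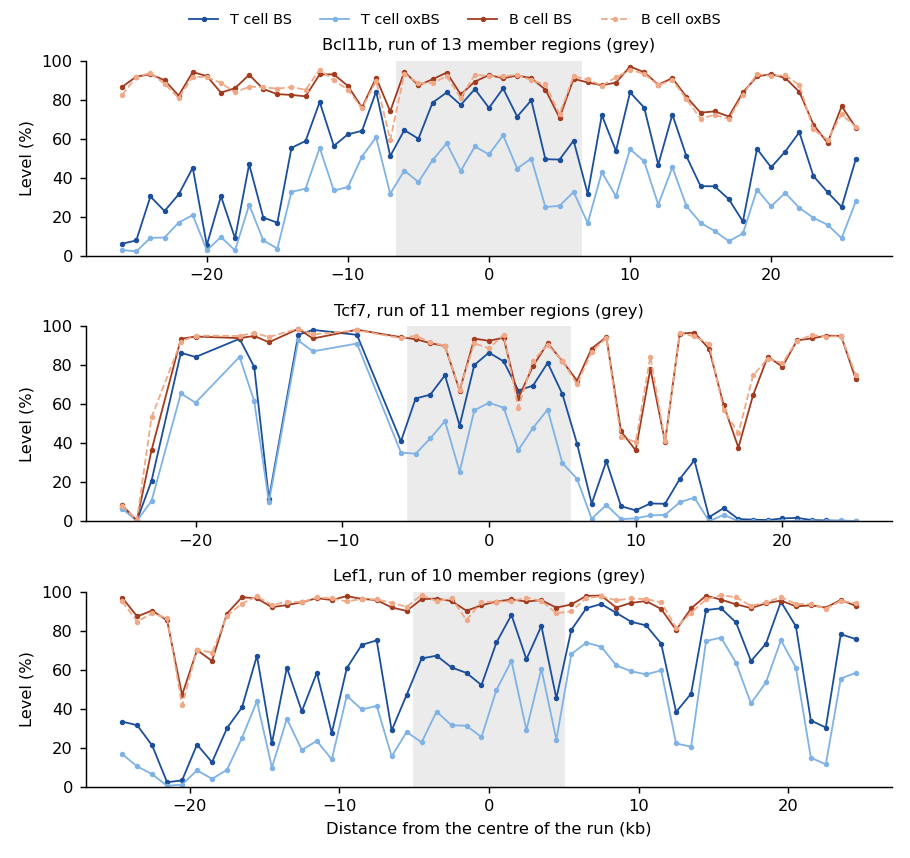
Pooled methylation level (%) of each eligible 1 kb region along the 3 longest runs of members (grey) and 20 kb on either side, by distance from the centre of the run in kb, for T cell BS and oxBS and B cell BS and oxBS pools of 4 libraries each. Within the grey runs T cell oxBS lies below T cell BS by 20.8 points or more in each region, while the B cell lines run together.

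Some members lay side by side. They fell into 4671 runs, of which 678 had 2 or more regions, and 1666 members (29.4%) had a member as a direct neighbour. Regions 1 kb away had a mean T cell difference of 12.8 points, with 20.6% of them members, and regions 10 kb away had 8.54 points. The mean was still 3.33 points at 100 kb and 2.46 points at 200 kb, against 1.28 points over all eligible regions, while the mean B cell difference stayed between -0.135 and -0.0113 points at these distances. Mean T cell BS level was 70.4% in members and 64.4% to 64.6% in the regions next to them, and mean oxBS level was 46.4% in members and 51.6% to 51.7% next to them, a contrast that the choice of members shapes.

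**Figure D4:**
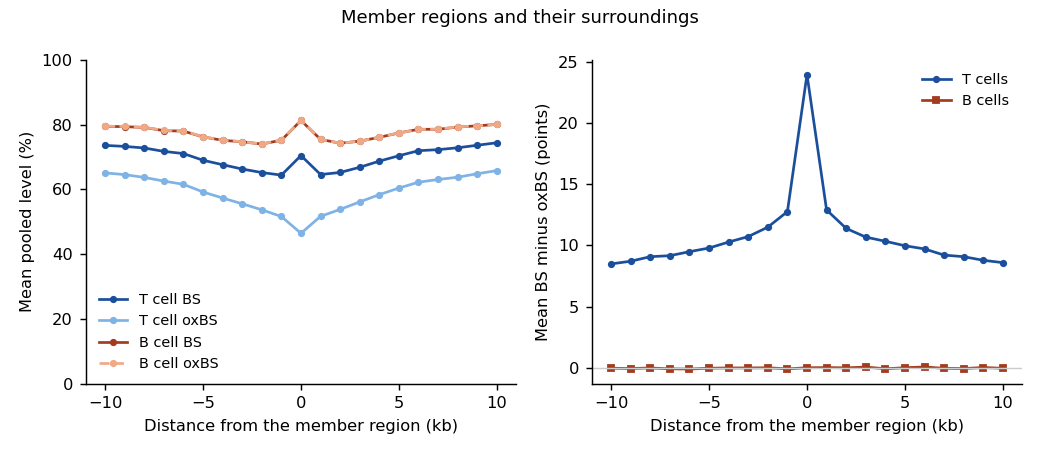
Mean pooled level (%, left) and mean BS minus oxBS difference (percentage points, right) of the eligible regions up to 10 kb on either side of the members, for T and B cells. The T cell difference is 24.0 points at the members, 12.8 to 12.9 points 1 kb away and 8.49 to 8.60 points 10 kb away, and the B cell line stays near 0.

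Most members lay inside genes. By GENCODE vM21 protein-coding models, 3795 members (67.1%) were intronic, against 33.9% of all eligible regions. Regions within 1000 bases of a gene start, which were counted first, were 2.42% of members and 3.19% of all regions. Other regions that touched an exon were 11.6% and 12.2%, and intergenic regions 18.9% and 50.7%. The median distance to a gene start was 18491 bases for members and 53137 bases for all regions. GC content (median 44.3% against 43.6%) and masked repeats (median 21.9% against 21.7% of bases) were close. A region with a pooled T cell level of 20% or less lay within 2 regions of 38.3% of members, against 6.62% of all, and one with a B cell level of 20% or less lay near 22.5% of members, against 6.20% of all.

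Short motifs were searched on both strands of the 1 kb regions as letters only. The RUNX core TGTGGT was found in 60.3% of members and 54.4% of all eligible regions, the TCF and LEF core CTTTGA in 56.3% and 53.9%, the ETS core CAGGAA in 69.3% and 67.2%, and the E-box CAGCTG in 37.1% and 35.4%. The GATA core AGATAA was found in 45.6% and 46.4%, the IRF letters (GAAA, any 2 bases, GAAA) in 14.9% and 14.1%, and the EBF letters CCCNNGGG in 18.4% and 18.0%. These shares describe letters, not binding.

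Of 20180 protein-coding genes with an eligible region, 1704 held at least 1 member, 238 at least 5 and 76 at least 10. Genes are named here from the ranking by member count, which was drawn up after the values were seen. Only some genes of the ranking are in the list that follows. It leaves out *Gm20388* (36 of 4208 regions), *Znrf1* (31 of 84) and *Ankrd11* (27 of 135). *Ankrd44*, *Gm20696*, *Ablim1*, *Cdk17*, *Klf13* and *Ripor2*, with 21 to 23 members each, are left out too. *Bcl11b* led with 49 of 94 eligible regions (52.1%), followed by *Lef1* with 48 of 113 (42.5%) and by *Bach2* with 47 of 312 (15.1%). *Bach2* encodes a transcriptional repressor used by both B and T lymphocytes. The forkhead transcription factor genes *Foxp1* and *Foxo1* held members in 41 of 570 and 35 of 76 regions, and *Satb1*, a chromatin organiser, in 38 of 80. *Cd247*, the zeta chain of the T cell receptor complex, held 28 of 86, and the kinase genes *Prkch*, *Prkcq*, *Itpkb* and *Jak1* held 28 of 188, 26 of 108, 27 of 92 and 22 of 95. The signalling adaptor *Grap2* held 25 of 78, the chromatin remodelling subunit *Arid1a* 24 of 72, the RNA-binding factor *Mbnl1* 29 of 97, the receptor *Tgfbr2* 20 of 89 and the lymphoid transcription factor *Ikzf1* 19 of 68. These genes were ranked on the values that chose the members, and 0.366% of all eligible regions were members. Over the whole *Bcl11b* gene the pooled T cell level was 44.4% by BS and 24.995% by oxBS, and the B cell difference was 0.0959 points. Over *Lef1* it was 48.6% and 28.9%, and the B cell difference was -0.827 points.

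Gene lists, which were chosen with earlier results of these data known, were read with 5 kb on either side. Among 30 T lineage genes, 29 held members, with 337 of 1622 eligible regions (20.8%) and a median T cell difference of 9.85 points over all of these regions, against 0.366% and 0.862 points over all eligible regions. The T cell receptor complex and its signalling genes held members in 28 of 95 regions at *Cd247*, 9 of 47 at *Lcp2*, 7 of 35 at *Lck*, 4 of 17 at *Lat*, 3 of 32 at *Zap70*, 2 of 16 at *Cd3d*, 1 of 19 at *Cd3g* and 0 of 20 at *Cd3e*, whose regions had a median of 12.2 points. Transcription factors held 49 of 104 at *Bcl11b*, 48 of 123 at *Lef1*, 41 of 86 at *Satb1*, 35 of 86 at *Foxo1*, 17 of 118 at *Ets1*, 13 of 40 at *Tcf7*, 13 of 231 at *Runx1*, 5 of 44 at *Gata3* and 1 of 68 at *Runx3*. Genes of naive T cell homing and survival held 3 of 22 at *Ccr7*, 3 of 13 at *S1pr1*, 2 of 18 at *Il7r* and 1 of 11 at *Klf2*.

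Genes of effector T cells held 6 of 374 regions (1.60%), against 0.366% of all eligible regions. Of these, 3 were at *Ctla4* and 1 each at *Il21*, *Il2ra* and *Icos*. None were at the cytokine genes *Ifng*, *Il4*, *Il13*, *Il5* or *Il17a* or at *Tbx21* or *Prdm1*. At the share over all eligible regions, 0.366%, genes with so few regions would mostly hold none. That share includes intergenic regions, of which 0.136% were members, against 0.723% of intronic regions. The lists were not compared with gene regions alone. B lineage genes held 49 of 1460 regions (3.36%), of which 47 were at *Bach2* and 1 each at *Cd79a* and *Cd79b*. Without *Bach2*, the other 18 genes held 2 of 1138 (0.176%), against 0.366% of all eligible regions. *Pax5* with 187 regions and *Ebf1* with 352 held 0, and at a share of 0.366% such numbers of regions can hold none. Genes of the TET and DNMT families and their partners held 8 of 621 (1.29%), with 5 at *Tet3*, 2 at *Tet1* and 1 at *Dnmt1*. Myeloid genes held 0 of 230 regions and neuronal genes 0 of 5878, against 0.366% of all eligible regions. At that share 0 of 230 regions does not set the myeloid genes apart. No region of any list was at -20 points or less, against 0.000775% of all eligible regions, a share at which most lists of this size would hold none.

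The largest differences that separated all T cell libraries began with an intergenic region 8671 bases from the start of the chromatin remodeller gene *Chd2*, chr7:73550001-73551000. Its T cell BS libraries read 86.7%, 89.7%, 90.3% and 70.6% and its oxBS libraries 39.3%, 31.0%, 23.1% and 47.4%, while B cell libraries read 87.0% to 100%. The lowest BS library was above the highest oxBS library, on 119 and 122 pooled calls. An intronic region of the cyclin gene *Ccnd3*, chr17:47516001-47517000, read 95.1%, 91.7%, 93.5% and 89.2% by BS and 55.2%, 44.0%, 54.3% and 34.6% by oxBS in T cells. In B cells the same region read 87.5% to 96.4% by BS and 100% in all 4 oxBS libraries, a difference in the opposite direction (exact permutation test p = 0.0286, two-sided, n = 4 against 4, the smallest possible; quasi-binomial adjusted p = 1).

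At the *Lef1* region whose window is printed above, chr3:131173001-131174000, T cell BS libraries read 64.3%, 59.2%, 68.3% and 70.4% and oxBS libraries 22.8%, 26.8%, 22.4% and 20.7%. B cell BS libraries read 93.6% to 98.9% and oxBS libraries 97.8% to 99.3%, and overlapped. The *Bach2* region chr4:32262001-32263000 read 83.9%, 84.5%, 77.6% and 71.8% by BS and 42.9%, 37.0%, 38.2% and 35.0% by oxBS in T cells. Its B cell libraries read 85.2% to 98% by BS and 86.4% to 96.3% by oxBS, and overlapped. The other 6 of the 10 largest were 182579 bases from the start of *Trib2* and at *Cnot6l*, *Cotl1*, *Ywhaz*, *Arid1a* and *Ptp4a2*, with T cell differences of 40.7 to 43.3 points and B cell differences of -1.45 to 5.76 points.

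The members with the most T cell calls rest on deeper data. *Ccr7* encodes the chemokine receptor that brings naive T cells to lymph nodes, and the region chr11:99145001-99146000 touches its exons and holds 50 CpGs. On 2381 BS and 1099 oxBS calls, T cell BS libraries read 54.1%, 50.2%, 57.7% and 59.3% and oxBS libraries 23.0%, 19.4%, 26.1% and 22.3%. B cell BS libraries read 89.4% to 92.9% and oxBS libraries 89.0% to 90.1%, a difference of 1.95 points (exact permutation test p = 0.0857, two-sided, n = 4 against 4). The region chr12:80110001-80111000 at *Zfp36l1*, which encodes an RNA-binding protein, had 1825 BS and 709 oxBS calls and pooled T cell levels of 43.9% and 12.7%. Its B cell libraries read 78.9% to 89.7% by BS and 69.7% to 83.4% by oxBS, and overlapped (exact permutation test p = 0.171, two-sided, n = 4 against 4). Within each level of B cell libraries the *Zfp36l1* values did not overlap, with 88.7% and 89.7% by BS against 81.9% and 83.4% by oxBS in libraries 1, 2, 9 and 10, and 78.9% and 79.9% against 69.7% and 73.7% in libraries 3, 4, 11 and 12. At *Ccr7* they did not overlap within a level either, with 92.2% and 92.9% against 90.1% and 90.1%, and 91.8% and 89.4% against 89.2% and 89.0%. In the regions at *Fam78a* and *Lipe* and near *Osbpl8*, described next, BS and oxBS libraries overlapped within at least 1 level. At *Fam78a* libraries 1, 2, 9 and 10 read 93.7% and 96.8% by BS against 96.4% and 94.7% by oxBS. The levels are known from the data alone, and these splits were not tested.

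The other 3 of the 5 members with the most calls had T cell differences of 30.9, 21.3 and 20.1 points. The region chr2:32069001-32070000 at *Fam78a* read 77.4% by BS and 46.5% by oxBS in T cells and 95.8% and 96.0% in B cells. The region chr10:111156001-111157000, 8251 bases from the start of *Osbpl8*, read 38.1% and 16.7% in T cells and 66.1% and 72.3% in B cells, where the libraries overlapped (exact permutation test p = 0.229, two-sided, n = 4 against 4). The region chr7:25380001-25381000 at *Lipe*, which encodes hormone-sensitive lipase, read 44.1% and 24.0% in T cells and 39.6% and 38.9% in B cells, so that its T cell BS level was not below the B cell level.

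Fewer oxBS than BS calls were present at the members in T cells. The members held 0.311% to 0.316% of the calls of each T cell BS library in eligible regions, but 0.250% to 0.255% of those of each T cell oxBS library, and the 2 groups did not overlap. In B cells, whose libraries cover the same regions, the shares were 0.303% to 0.318% by BS and 0.299% to 0.325% by oxBS, and overlapped. The ratio of oxBS to BS calls was 0.795 at the members in T cells and 1.03 in B cells, against 0.993 and 1.02 over all eligible regions. In T cells it fell with the difference, from 0.996 in regions between 0 and 5 points to 0.899 between 10 and 15 points, 0.807 between 20 and 25 points and 0.735 at 30 points or more. It was 0.994 in the 11 regions at -20 points or less that had B cell values. The part of this loss of calls in the difference of levels was not tested.

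**Figure D5:**
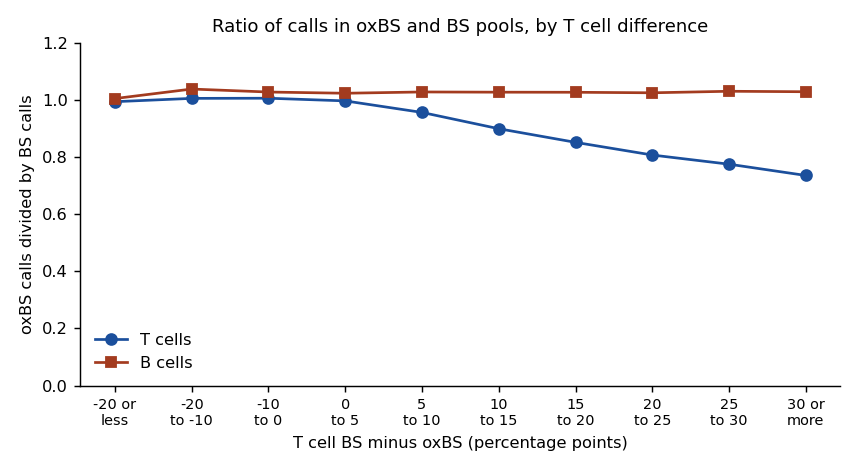
Number of oxBS calls divided by number of BS calls in the pools of 4 libraries, for eligible regions grouped by their T cell BS minus oxBS difference (percentage points), in T cells (circles) and in the same regions in B cells (squares). The T cell ratio falls from 1.01 between -10 and 0 points to 0.735 at 30 points or more, and the B cell ratio stays between 1.00 and 1.04.

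Levels of the members in T and B cells are set side by side as a description, because the T cell BS and oxBS calls that chose the members also enter this comparison and the choice favours low T cell oxBS levels. The median B cell level was 87.3%, and the median T minus B difference was -20.4 points, -9.76 points by BS alone and -33.9 points by oxBS alone, against -0.417, -0.0381 and -0.793 points over all regions. By the quasi-binomial test over 16 libraries with sex and assay as covariates, 2815 of 5575 members (50.5%) were lower in T cells by 20 points or more with an adjusted p below 0.05, against 1.7% of all regions, and 90 (1.61%) were higher, against 0.879%. These shares are not independent of the rule, and nothing is read from them about the members. In BS libraries alone, 634 members (11.4%) were lower, against 0.607% of all regions, and 50 (0.897%) higher, against 0.421%. In oxBS libraries alone, 2813 (50.5%) were lower, against 1.36%, and 15 (0.269%) higher, against 0.398%. Without B cell libraries 3, 4, 11 and 12, which stood at the lower level, 2850 members were lower and 44 higher.

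The number of members called lower in T cells by that test, with the same dependence on the rule, is given for some of the leading genes. All but 1 of the 28 members at *Cd247* were, as were 44 of 48 at *Lef1*, 41 of 49 at *Bcl11b* and 33 of 38 at *Satb1*. The counts were 24 of 47 at *Bach2*, 13 of 41 at *Foxp1*, 8 of 35 at *Foxo1* and 7 of 29 at *Mbnl1*. By T cell level, members were 4.47% of eligible regions between 40% and 50% and 0.118% of those between 80% and 90%. The rule itself leaves almost no room for members near 0 or 100%, where there were 0 at 0 to 10% and 0 at 90 to 100%. By B cell level, members were 1.03% to 1.17% of eligible regions in each band from 40% to 70%, 0.365% between 80% and 90% and 0.254% at 90% or more, although the last band held 2305 of the members.

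The 12 regions at -20 points or less had a median of 335.5 T cell calls, and 9 were intergenic. The most negative was in an intron of *Sergef*, chr7:46541001-46542000, where T cell BS libraries read 19.2%, 40%, 35.3% and 30% and oxBS libraries 72.2%, 66.1%, 83.3% and 65%, with no overlap. Its 8 B cell libraries read 82.4% to 98.0%, and the BS and oxBS groups overlapped. It had 5 CpGs and was at -37.2 points in males and -41.1 points in females. The next 2 with all T cell libraries apart and at least 10 calls in each were 224136 bases from the start of *9330182O14Rik* (-24.6 points in T and -7.06 points in B cells) and 14764 bases from that of *Zdbf2* (-23.9 points in T and 18.1 points in B cells).

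Depth was similar in the cell types. T cell libraries listed 154857425 to 170135949 calls, or 7.42 to 8.03 per autosomal CpG, and B cell libraries 123693203 to 171130063, or 5.83 to 8.07. A library held a median of 53 to 71 calls per member in T cells and 49 to 71 in B cells.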

How the data were processed

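The series holds 16 whole-genome BS and oxBS libraries of T and B cells. Per the labels and the study's methods, the authors trimmed reads (Trim Galore 0.6.0), mapped them to mm10 with Bismark 0.20.0 and kept alignments of MAPQ 10 or higher for methylation calling (SAMtools 1.3.1 is also named in the processing notes). The deposited values are counts: unmethylated and methylated calls per CpG and library, with no normalization. PCR duplicates or reads that overlap several CpGs make calls less than independent, so depth covers counting error only.

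Calls at CpGs of the reference were summed in 1 kb regions, and 44938 to 61854 listed positions per library that were not reference CpGs were left out. A level is the pooled share of methylated calls in percent. Distances to a gene start were measured from the centre of a region. Groups came from the sample titles and labels. B cell BS against oxBS (8 libraries, sex as covariate) and T against B cells (16 libraries, sex and assay) were tested by a quasi-binomial logistic model with a dispersion of at least 1, fitted to all 1522052 regions with Benjamini-Hochberg adjustment at 0.05, after a check on simulated data. Single regions were tested by exact permutation tests over libraries. The interaction in the held-out sex used limma 3.58.1 on log2((methylated + 1)/(unmethylated + 1)), of which the deposited counts are the input. Regions were named by fixed ranks: the 10 largest T cell differences with all libraries apart and at least 10 calls each, the 5 members with the most calls, the 10 largest B cell differences, the 3 most negative regions, the 5 longest runs and the 3 on each side of the limit. Listed genes were named where they hold a member, and the ranking of genes by members was added later. The members, gene lists and tests were chosen with earlier results of these data known. Motifs, single CpGs, sequences, distances beyond 10 kb, call ratios and the interaction were added after the data were seen. Alternatives covered limits, call and CpG minimums, region start, pooling, libraries and tests. Python 3.11.15, NumPy 2.4.6, SciPy 1.17.1 and Matplotlib 3.10.9 were used, with GENCODE vM21 and RefSeq GRCm38.p6. A few of the listed genes are counted in the lists but not reported here by name.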

Additional observations from a re-analysis of the deposited data

Results flagged for a closer look

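On the X chromosome, which the rule leaves out, 38 of 52137 regions that met the CpG and call minimums (0.0729%) had a T cell BS level at least 20 points above the oxBS level, and 1 was at -20 points or less. In B cells 4 of 46888 such regions were at 20 points or more and 8 at -20 points or less. The median T cell difference on X was 0.505 points.

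In 108 groups of 4 libraries whose levels were looked at, 1 library stood apart from the other 3 of its group by the gap relative to the range, where chance gives about 1 in 20. It was a B cell BS library at the *Bach2* region chr4:32262001-32263000, which read 85.2% against 96.8% to 98% in the other 3.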

How the results depend on the processing

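Of 22 alternatives, the count of members stayed within 1.5 times of 5659 in 15, among them a start shifted by 500 bases (5595), the mean of library levels (5761) and subtraction of the median difference of all regions (4611). It moved to 16479 at 15 points, 1710 at 25 points, 410 at 30 points, 3219 with 200 calls, 2554 with 10 CpGs, 8574 in male and 8591 in female T cell libraries alone, for which the call minimum was also lowered to 50 (50 calls with all libraries gave 6068). The count at the opposite limit, 12 in the report, was 221 at 15 points, 2 at 25 points, 1 at 30 points, 32 with 50 calls, 2 with 200 calls, 2 with 10 CpGs, 6 with the shifted start, 26 with the median subtracted, 333 in male and 364 in female libraries with 50 calls. Without 1 T cell library, members numbered 5276 to 5739 and opposite regions 16 to 29.

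The median B cell difference over members stayed between -0.744 and 0.751 points in 34 alternatives, including those without B cell libraries 3, 4, 11 and 12 or without 1, 2, 9 and 10, which were chosen after seeing the data. Members at 20 points or more in B cells numbered 1 at a limit of 15 points, 1 with 50 calls, 2 in male and 2 in female T cell libraries alone with 50 calls, and 0 to 1 without 1 T cell library. B cell BS against oxBS called 70 regions, 0 of them members, with no lower limit on the dispersion, and 0 under the other 13 alternatives. With the level of the B cell library (3, 4, 11 and 12 against the rest) as a further covariate, chosen after seeing the data, an unadjusted p under 0.05 was found in 46 members (0.825%) and 0.706% of all regions, and by limma in 238 (4.27%) and 4.90%.

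Regions called between T and B cells (39206) numbered 82515 at 10 points, 19813 at 30 points and 15656 in BS libraries alone. Members lower in T cells numbered 1597 at 30 points and 634 in BS libraries alone, and members higher in T cells 46 at 30 points, 50 in BS, 15 in oxBS libraries alone and 44 without B cell libraries 3, 4, 11 and 12. The held-out medians were 16.3 points (chosen in males) and 16.4 points (chosen in females) with 100 calls per pool in the choosing sex. The cause of these changes was not tested. No paired analysis was run, because the library numbers in the titles are all different and no label ties a BS to an oxBS library. Libraries with neighbouring numbers were compared by their values alone, and no fit blocked on them was run. Members rest on pools of 4 libraries, and the level of 1 region in 1 library rests on a median of 49 to 71 calls.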
